A study of Mus musculus with 6 samples.

Results

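Transcripts of Txnip, of the arrestin-domain genes Arrdc1 to Arrdc4, of the arrestin genes Arrb1 and Arrb2, and of Mlxip and Mlx were followed in RAW264.7 cells, a mouse macrophage-like line. These 9 genes were taken by symbol from the 24379 genes of the count table, and all 9 were among the 14360 genes tested. The cells carried the label HFCS, high-fructose corn syrup, in 3 libraries, and the label WT, here called control, in the other 3. HFCS is a sweetener of free fructose and glucose. The labels disagree on its dose, which is 140 mM by title and treatment label but 170 mM by source name, and 18 h is the time given for both groups. The sources used here do not give what the control cells received. Nothing says that the replicates were separate cultures, so p-values cover only the scatter among libraries, part or all of which may be technical.

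TXNIP is an α-arrestin, a protein with the arrestin fold that binds thioredoxin and lowers its activity, and that helps to withdraw glucose transporters from the cell surface. Its gene is a textbook target of MondoA, the product of Mlxip. MondoA pairs with MLX and enters the nucleus when phosphorylated hexose builds up in the cell. ARRDC4 is the closest relative of TXNIP, and its gene is also a MondoA target. The other α-arrestins link membrane proteins to ubiquitin ligases of the NEDD4 family, and ARRDC1 also drives the budding of small vesicles from the plasma membrane. The β-arrestins ARRB1 and ARRB2 bind activated G-protein-coupled receptors, ending their signal to G proteins and carrying them to clathrin-coated pits.

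The promoters of Txnip, Arrdc4 and Arrdc2 are shown because these are the best-known MondoA target among the 9 genes and the genes with the largest change in each direction. Windows of 300 bases, 250 before the start of transcription and 50 after it, were taken from RefSeq on GRCm38.p6, the build that mm10 names. They lie at chr3:96557707-96558006 on the plus strand for Txnip, at chr7:68749189-68749488 on the minus strand for Arrdc4 and at chr8:70839671-70839970 on the minus strand for Arrdc2. Capitals mark every match, on either strand, to CACGTG, the E-box, to a pair of CACGNG motifs with 5 bases between them, and to CCAAT, which reads ATTGG on the other strand.
Txnip: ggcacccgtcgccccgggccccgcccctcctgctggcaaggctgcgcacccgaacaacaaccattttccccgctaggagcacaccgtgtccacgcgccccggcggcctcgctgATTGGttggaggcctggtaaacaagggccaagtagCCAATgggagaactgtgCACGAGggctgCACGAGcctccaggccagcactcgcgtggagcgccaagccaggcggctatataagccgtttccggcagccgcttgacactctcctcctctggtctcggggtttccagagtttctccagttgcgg
Arrdc4: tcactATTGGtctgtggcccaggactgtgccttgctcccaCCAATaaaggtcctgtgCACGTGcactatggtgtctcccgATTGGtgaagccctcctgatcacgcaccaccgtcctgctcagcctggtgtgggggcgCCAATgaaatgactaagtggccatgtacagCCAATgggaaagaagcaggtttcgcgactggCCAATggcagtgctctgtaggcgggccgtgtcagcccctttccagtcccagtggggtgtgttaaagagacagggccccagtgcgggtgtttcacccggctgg
Arrdc2: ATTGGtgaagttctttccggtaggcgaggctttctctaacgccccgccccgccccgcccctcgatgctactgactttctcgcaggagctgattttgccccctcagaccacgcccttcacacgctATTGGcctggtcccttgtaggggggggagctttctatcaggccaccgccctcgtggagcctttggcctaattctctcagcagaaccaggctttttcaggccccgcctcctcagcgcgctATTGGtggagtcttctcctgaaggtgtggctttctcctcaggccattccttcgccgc

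The Txnip window held 1 such pair of CACGNG motifs, from -85 to -69 relative to the start, and 2 CCAAT matches. The motif letters were chosen because earlier work on this promoter describes such an element, so that its presence tests nothing. Of 32851 mouse promoter windows of the same length, 16 (0.0487%) held the pair, and no other window of the 9 genes did. The Arrdc4 window held an E-box from -193 to -188 and 6 CCAAT matches, and 26 of all windows (0.0791%) held at least that many CCAAT matches. The Arrdc2 window held 3 CCAAT matches, a number reached by 3.37% of windows, and neither of the other motifs. The Mlx window held an E-box from -40 to -35 and 2 CCAAT matches, and that of Mlxip held 2 CCAAT matches. Windows were matched for 7 of the 9 genes, all but Arrb1 and Arrb2, and Arrdc3 had 3 of them. An E-box was present in 7.15% and CCAAT in 37.4% of all windows. A match is a description of the letters and no sign of binding.

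**Figure D1:**
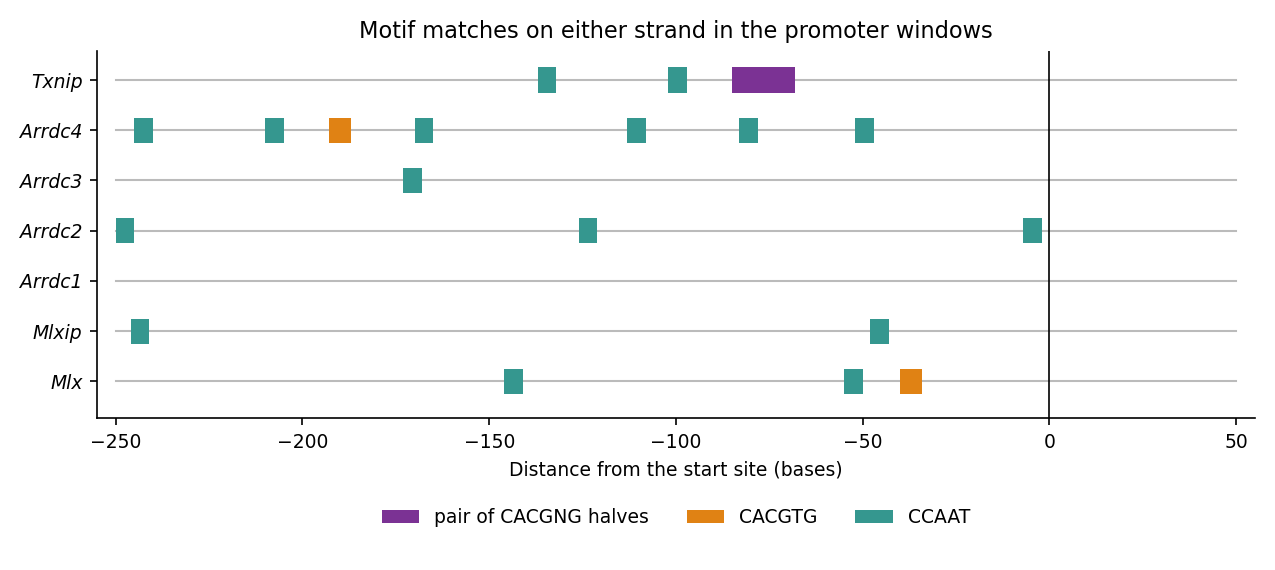
Motif matches in the RefSeq promoter windows of the genes that had one (1 of the 3 for Arrdc3), plotted by distance in bases from the start of transcription. The Txnip window has the pair of CACGNG motifs from -85 to -69, the Arrdc4 window 6 CCAAT matches and an E-box, and the Arrdc1 window no match.

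Total counts were 13108485 to 15340255 in HFCS libraries and 14101303 to 14840315 in control libraries. A total of 3 counts, the floor used for a gene not counted, corresponds to 0.190 to 0.223 CPM, counts relative to the TMM-scaled library size. The first principal component, with 70.0% of the variance, parted the groups. The second set control replicate 1 at 29.3 apart from the other control libraries at -14.2 and -13.4. It also set HFCS replicate 3 at -18.9 apart from HFCS replicates 1 and 2 at 8.9 and 8.2. All 10 macrophage markers were counted in every library. Their summed level was 2407 to 2440 CPM in HFCS and 2053 to 2078 CPM in control libraries, with 8 markers higher and Cd68 and Csf1r lower in HFCS. All 10 passed the edgeR test described below, against 44.9% of all tested genes, of which 22.4% were higher and 22.5% lower. Tyrobp (edgeR adjusted p = 0.014) did not pass without HFCS replicate 2 (0.06) or control replicate 2 or 3 (0.057 for each). Itgam shares 68.7% of its exon bases with Gm49368 on the same strand, and Csf1r shares 15.1% with Hmgxb3 on the opposite strand. Summed markers of B cells reached 3.99 to 4.88 CPM in HFCS and 4.72 to 4.80 CPM in control libraries, nearly all from Cd79b. Those of T or NK cells reached 0 to 0.0743 CPM in HFCS and 0 to 0.347 CPM in control libraries, and those of neutrophils 1.01 to 1.34 CPM in HFCS and 0.807 to 1.04 CPM in control libraries. Those of fibroblasts reached 0.85 to 1.78 CPM in HFCS and 0.208 to 0.881 CPM in control libraries, and those of epithelial cells 0 to 0.131 CPM in HFCS and 0.0706 to 0.208 CPM in control libraries. The sums cover 2 of 5 listed markers for T or NK cells and for epithelial cells, and 4 of 5 for B cells, neutrophils and fibroblasts. What part these markers have in the results was not tested. Mpo, Col3a1, Pdgfra, Dcn and Krt19 were at 0 in every control library, and Krt8 in every HFCS library. In bulk libraries, fewer cells of a type and less RNA per cell cannot be told apart. Every direction rests on the labels. Akr1b3, an aldose reductase gene known to rise in hypertonic medium and named after its values were seen, averaged 208 ± 12.0 CPM under the HFCS label and 7435 ± 381 CPM under the control label (SD, n = 3 each).

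Of the 9 genes, Txnip, Arrdc3, Arrdc4 and Arrb2 rose and Arrdc2 and Arrb1 fell in HFCS libraries, while Arrdc1, Mlxip and Mlx did not pass the test. The test was edgeR's quasi-likelihood test with an adjusted p under 0.05 over all tested genes. The 6 calls are 66.7% of the genes, where 44.9% of all tested genes passed in either direction. The 4 that rose are 44.4%, where 22.4% of tested genes were higher, and the 2 that fell are 22.2%, where 22.5% were lower. Arrdc2 and Arrdc4 also differed by at least 2-fold, 22.2% of the genes against 10.6% of all tested. The libraries of the groups did not overlap for 8 of the 9 genes, all but Arrdc1, which is 88.9% against 54.5% of tested genes. The median log2 fold change was 0.14 over the 9 genes and -0.005 over all tested genes. With 9 genes these shares are descriptions.

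**Figure D2:**
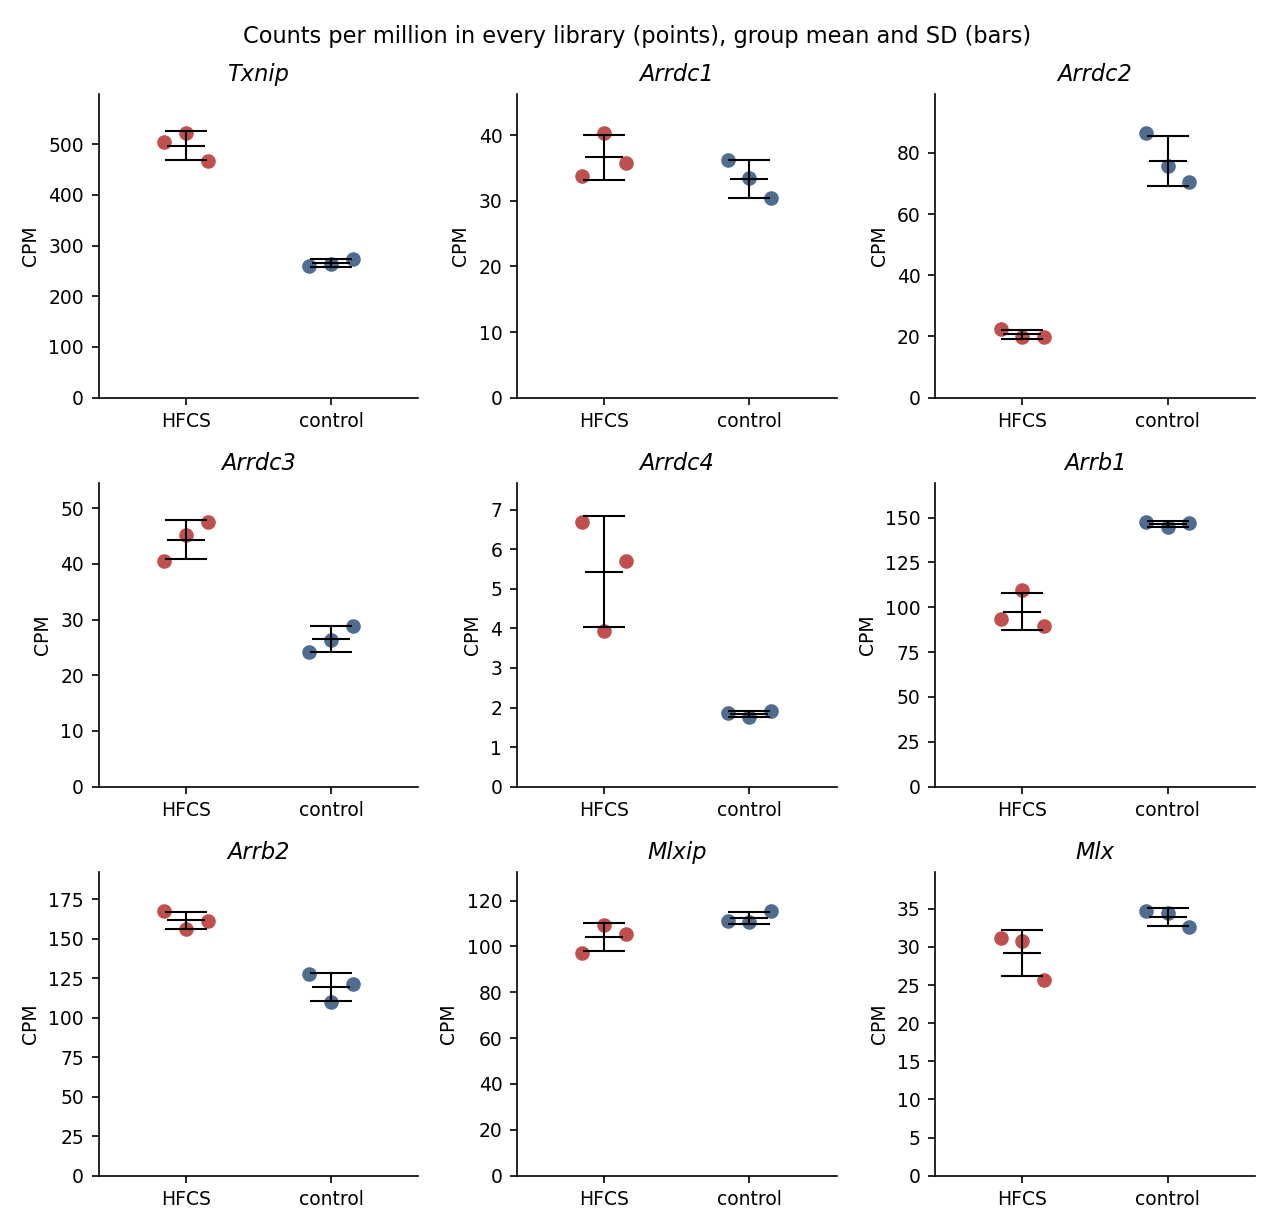
Level of each gene in every library in CPM, with points for libraries and a bar for the group mean, HFCS left of control. The HFCS points of Txnip lie between 466 and 522 CPM, above its control points, while those of Arrdc2 lie below its control points.

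Txnip (ENSMUSG00000038393, mm10 chr3:96557957-96561883, plus strand) was the most abundant of the 9 transcripts. It had 503.6, 522 and 466 CPM in HFCS replicates 1 to 3, against 260.4, 263 and 274 CPM in control replicates 1 to 3. Every HFCS library was far above every control library, and the control libraries lay close together. The mean was 497 ± 28.2 CPM in HFCS and 266 ± 7.29 CPM in control libraries (SD, n = 3 each). The log2 fold change was 0.90 ± 0.07 (SE; 95% interval 0.76 to 1.05) with an edgeR adjusted p of 3.7e-06, a 1.87-fold rise. By fold change, Txnip was 828th from the highest of the 14360 genes. Its exons share 606 bases, 19.4% of their length, with Gm15441, a gene on the opposite strand. Since no source used here gives the strand setting of the counting, reads of the shared bases cannot be told apart. Gm15441 had 10, 8 and 11 counts in HFCS libraries, against 18, 28 and 35 counts in control libraries. It fell by 1.55 on the log2 scale (SE 0.38, edgeR adjusted p = 0.0069), opposite to Txnip, and its counts are few beside the 22123 counts of Txnip in HFCS and 11227 in control libraries.

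Arrdc4 (ENSMUSG00000042659, chr7:68736995-68749241, minus strand) had the highest fold change and the lowest level of the 9 genes. It was counted 90, 60 and 90 times in HFCS libraries and 27, 24 and 27 times in control libraries, which gives 6.69, 3.92 and 5.70 CPM in HFCS and 1.87, 1.76 and 1.91 CPM in control libraries. All HFCS libraries were above all control libraries, with HFCS replicate 2 the lowest of its group. The log2 fold change was 1.55 ± 0.25 (SE; 95% interval 0.99 to 2.10) with an edgeR adjusted p of 0.00063, and the rank was 227th from the highest. The interval is the widest of the 9 genes, at the smallest counts.

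Arrdc4 and Txnip were also set against each other within each library, as levels per kilobase of exon. The log2 ratio of Arrdc4 to Txnip was -6.61, -7.43 and -6.73 in HFCS libraries, against -7.49, -7.60 and -7.54 in control libraries. All HFCS ratios were higher, though that of HFCS replicate 2 lay close to the control libraries. The difference of the means was 0.62, with a two-sided exact permutation p of 0.1 (0.15 adjusted over the 3 ratios tested), and 0.1 is the smallest p that 3 against 3 libraries allow.

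Arrdc3 (ENSMUSG00000074794, chr13:80883384-80896042, plus strand), whose product assists the ubiquitination of β-adrenergic receptors, rose as well. It had 40.5, 45.1 and 47.5 CPM in HFCS libraries, against 24.2, 26.3 and 28.9 CPM in control libraries. The groups were well apart, with a similar spread in each. This is a log2 fold change of 0.75 ± 0.10 (SE; 95% interval 0.52 to 0.97; edgeR adjusted p = 2e-04).

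Arrdc2 (ENSMUSG00000002910, chr8:70835129-70839720, minus strand), a less studied α-arrestin gene, went the other way and had the largest change of the 9 genes. It had 22.4, 19.9 and 19.9 CPM in HFCS libraries, against 86.4, 75.6 and 70.4 CPM in control libraries. The HFCS libraries lay close together at a low level, far under every control library. Its mean was 20.7 ± 1.47 CPM in HFCS and 77.5 ± 8.19 CPM in control libraries, 3.74-fold higher in control. On the log2 scale the fold change was -1.90 ± 0.10 (SE; 95% interval -2.13 to -1.68; edgeR adjusted p = 4e-07), and Arrdc2 was 266th from the lowest of the 14360 genes.

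Arrdc1 (ENSMUSG00000026972, chr2:24925352-24935252, minus strand) did not pass the test. It had 33.7, 40.3 and 35.8 CPM in HFCS libraries, against 36.1, 33.4 and 30.4 CPM in control libraries, and the groups overlapped. Its log2 fold change was 0.14 with a 95% interval of -0.09 to 0.36 (edgeR adjusted p = 0.31), so a change of 1.5-fold lay outside the interval.

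**Figure D3:**
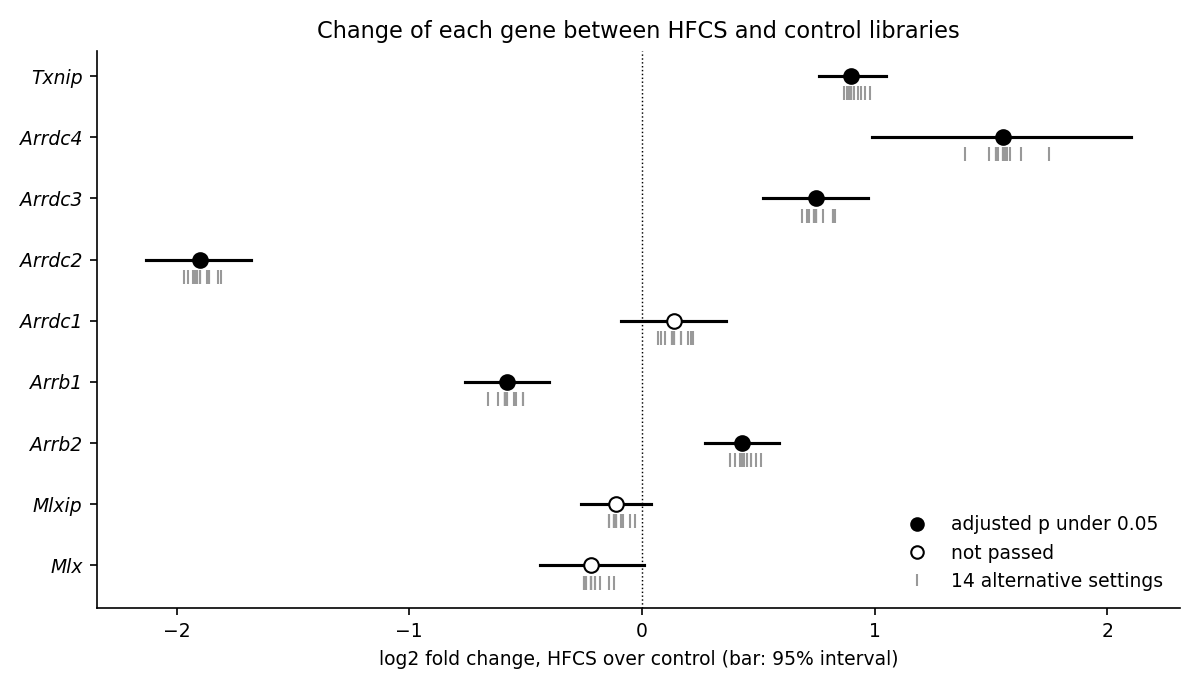
Log2 fold change of HFCS over control for the 9 genes, with 95% intervals from edgeR's quasi-likelihood test. Arrdc4 (1.55) and Arrdc2 (-1.90) lie farthest from 0, and the intervals of Arrdc1, Mlxip and Mlx cross 0.

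The β-arrestin genes moved in opposite directions. Arrb2 (ENSMUSG00000060216, chr11:70432635-70440828, plus strand) had 167, 156 and 161 CPM in HFCS libraries, against 128, 109.9 and 121 CPM in control libraries. Arrb1 (ENSMUSG00000018909, chr7:99535466-99606771, plus strand) had 93.7, 109.6 and 89.6 CPM in HFCS libraries, against 147, 144 and 147 CPM in control libraries. For both genes the groups did not overlap, and the control libraries of Arrb1 lay closest together. The log2 fold change was 0.43 ± 0.07 (SE) for Arrb2 (95% interval 0.27 to 0.59, edgeR adjusted p = 0.00078) and -0.58 ± 0.08 (SE) for Arrb1 (95% interval -0.76 to -0.40, edgeR adjusted p = 0.00023). Per kilobase of exon, Arrb2 transcript exceeded that of Arrb1 7.02, 5.60 and 7.06 times in HFCS libraries, against 3.40, 2.99 and 3.23 times in control libraries. The size of this excess depends on the exon lengths, which join all annotated exons, 2845 bases for Arrb2 and 11175 for Arrb1. The ratio was higher in every HFCS library, 2.04-fold on average, with a two-sided exact permutation p of 0.1 (0.15 adjusted over the 3 ratios).

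Transcripts of MondoA and of its partner did not pass the test. Mlxip (ENSMUSG00000038342, chr5:123394798-123457932, plus strand) had 97.3, 109 and 106 CPM in HFCS libraries, against 111, 110.7 and 115 CPM in control libraries. Mlx (ENSMUSG00000017801, chr11:101087277-101092207, plus strand) had 31.2, 30.7 and 25.7 CPM in HFCS libraries, against 34.7, 34.5 and 32.5 CPM in control libraries. Every HFCS library was below every control library for both genes, by small steps. Groups that did not overlap, in either direction, were found for 54.5% of all tested genes. The log2 fold change was -0.11 for Mlxip (95% interval -0.26 to 0.04, edgeR adjusted p = 0.21) and -0.22 for Mlx (95% interval -0.44 to 0.01, edgeR adjusted p = 0.11). Of the exon bases of Mlx, 385 (19.3%) are shared with Psmc3ip on the opposite strand, which had a log2 fold change of 0.28 (edgeR adjusted p = 0.066). The log2 ratio of Mlx to Mlxip per kilobase was 0.42, 0.23 and 0.02 in HFCS libraries, against 0.38, 0.38 and 0.23 in control libraries. These ratios overlapped (two-sided exact permutation p = 0.6, also 0.6 adjusted over the 3 ratios).

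Levels of different genes were compared as RPKM, CPM per kilobase of exon in GENCODE M21. Exon length joins all annotated exons of a gene, and the levels and their order depend on it. In HFCS libraries the order ran Txnip (159 ± 9.03 RPKM), Arrb2 (56.8), Mlx (14.6), Arrdc1 (14.6), Mlxip (12.5), Arrb1 (8.73), Arrdc3 (7.08), Arrdc2 (6.42) and Arrdc4 (1.35). In control libraries it ran Txnip (85.2 ± 2.33 RPKM), Arrb2 (42.0), Arrdc2 (24.0), Mlx (16.96), Mlxip (13.5), Arrdc1 (13.3), Arrb1 (13.1), Arrdc3 (4.22) and Arrdc4 (0.457). Txnip and Arrb2 led and Arrdc4 was last in both groups, and Arrdc2 stood lower in the order in HFCS libraries than in control libraries, passed there by Mlx, Arrdc1, Mlxip, Arrb1 and Arrdc3. In HFCS libraries the range of Mlx overlapped those of Arrdc1 and Mlxip, and the range of Arrdc3 overlapped that of Arrdc2. In control libraries the range of Arrdc1 overlapped those of Mlxip and Arrb1.

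**Figure D4:**
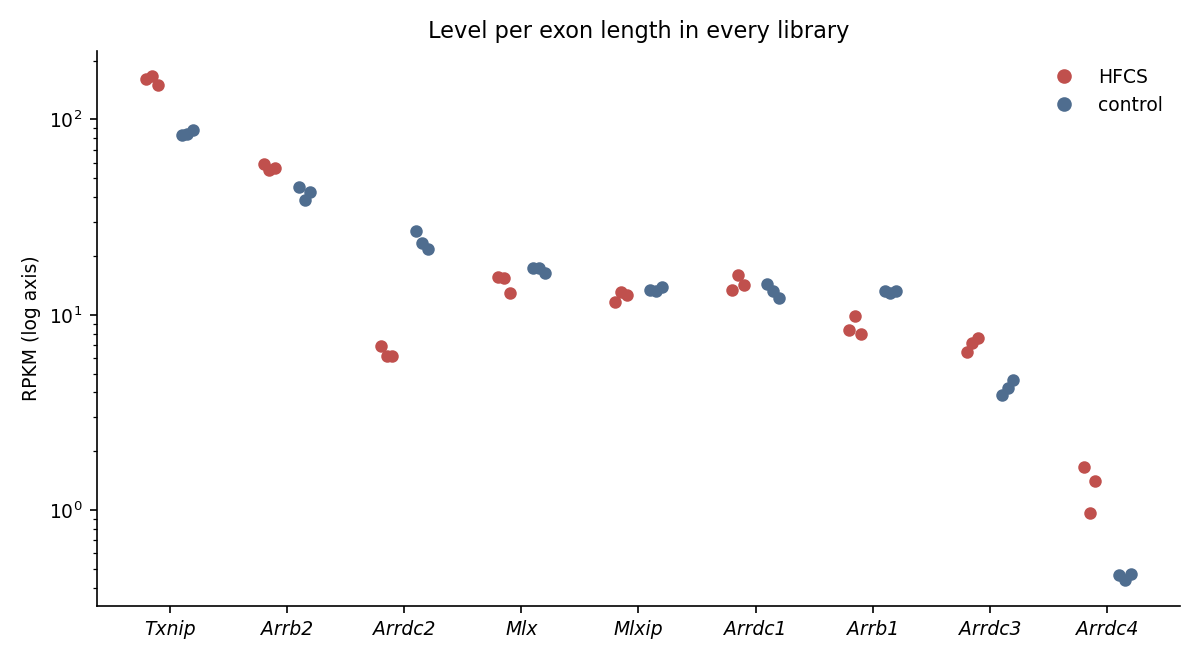
Level per kilobase of exon (RPKM, log axis) of the 9 genes in every library, HFCS left of control. Txnip is highest and Arrdc4 lowest in both groups, and Arrdc2 has 6.42 RPKM in HFCS against 24.0 RPKM in control libraries.

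The genes with the most similar pattern were found by the distance between log2 CPM values, centred over the 6 libraries, among genes with a mean of at least 5 CPM. Among those nearest to Txnip were Spryd3 (distance 0.076), Dgat2 (0.104), Med26 (0.136) and Fez2 (0.139), with log2 fold changes of 0.82 to 0.95. Dgat2 codes for an enzyme that makes triglycerides. Nearest to Arrdc4 were Filip1l (0.326), Sphk2 (0.390), Tnf (0.409), Tmem132a (0.446) and Nlrp3 (0.460), with log2 fold changes of 1.38 to 1.6. Over 6 libraries that part by group, such distances mainly rank genes of like fold change.

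Other genes of the Mondo, MYC, MAX and MXD network, transcription factors that are related to MondoA or bind like sites, were mostly lower where they passed. Of 12 tested, 2 rose, 5 fell and 5 did not pass, with a median log2 fold change of -0.22. Of all tested genes 44.9% passed, 22.4% higher and 22.5% lower, against 58.3% of this list. With so few genes in a list, such shares are descriptions. Mycn, the most abundant, had 783 ± 61.8 CPM in HFCS and 1367 ± 169 CPM in control libraries, a log2 fold change of -0.80 (edgeR adjusted p = 7.6e-05). Max, the common partner of the MYC proteins, fell by 0.37 and the repressor gene Mxd3 by 0.80 on the log2 scale. Myc rose, with 8.55 ± 1.17 CPM in HFCS and 4.76 ± 0.0836 CPM in control libraries (edgeR adjusted p = 0.0021). Mlxipl, the gene of ChREBP, the sister factor of MondoA, had 20 counts over the HFCS and 8 over the control libraries and was not tested. Srebf1, a lipogenic regulator, had a log2 fold change of -0.21 (edgeR adjusted p = 0.069). It passed without control replicate 2 (0.025), with upper-quartile scaling (0.043) and under the replicate block (0.024). The block treats libraries of the same replicate number as a set. Mxd1, the other gene that rose (0.34, edgeR adjusted p = 0.029), did not pass without HFCS replicate 2 or 3 or without control replicate 2 or 3, at 0.14, 0.054, 0.096 and 0.063.

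Glucose-response targets of MondoA and ChREBP, the list that holds Txnip and Arrdc4, moved both ways. Of 14 tested, 3 rose, 6 fell and 5 did not pass, with a median log2 fold change of -0.14. The share that passed was 64.3%, against 44.9% of all tested genes. Beside Txnip and Arrdc4, the glycogen synthase gene Gys1 rose (0.25, edgeR adjusted p = 0.046), but not without HFCS replicate 2 or 3 or without control replicate 1 or 2 (0.16, 0.096, 0.067 and 0.093), nor with upper-quartile scaling (0.074) or DESeq2 (0.059). The fatty acid synthase gene Fasn had 251 ± 6.45 CPM in HFCS and 400.5 ± 16.3 CPM in control libraries, a log2 fold change of -0.67 (edgeR adjusted p = 1.7e-05). Acaca, which makes the malonyl-CoA used by fatty acid synthase, fell by 0.71, the triokinase gene Tkfc of fructose breakdown by 0.85, and the elongase gene Elovl6 by 0.52 on the log2 scale. The repressor genes Bhlhe40 (-0.47) and Klf10 (-0.25) fell too, and Klf10 lost its call without HFCS replicate 1 or 2 or control replicate 2 (edgeR adjusted p = 0.12, 0.08 and 0.068), with library-size scaling (0.087) and with no filter on low counts (0.074). Scaled by library size alone, 5 genes of the list were higher and 5 lower. Pklr (3 counts in HFCS, 0 in control libraries), Rgs16 (22 in HFCS, 9 in control) and Fgf21 (5 in HFCS, 2 in control) were not tested.

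**Figure D5:**
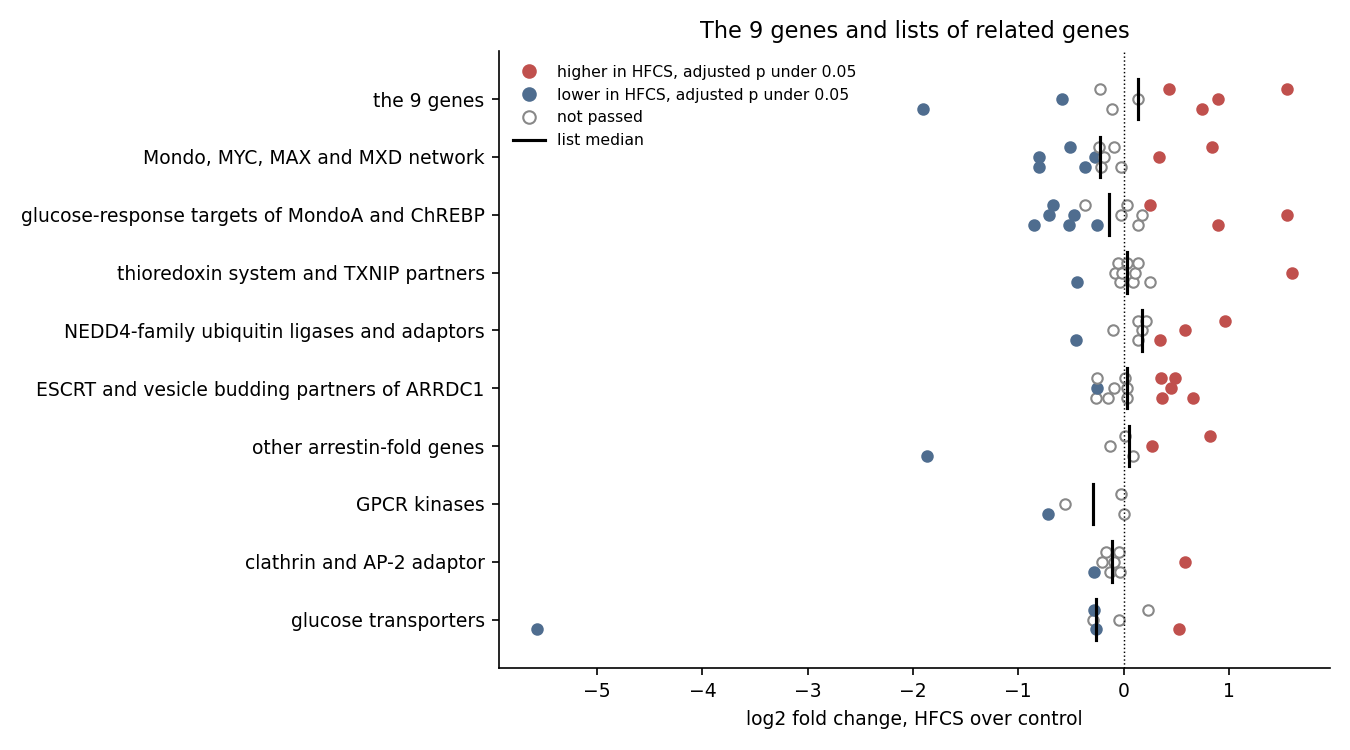
Log2 fold change of HFCS over control for the tested genes of each list, 1 point per gene, with the list's median as a bar. The medians lie between -0.29 for the GPCR kinases and 0.18 for the NEDD4 family, and most lists hold genes on both sides of 0.

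Of the thioredoxin system and known partners of TXNIP, 11 genes were tested, of which 1 rose, 1 fell and 9 did not pass. The share that passed was 18.2%, against 44.9% of all tested genes, and the median log2 fold change was 0.03. Nlrp3, the inflammasome sensor to which TXNIP has been reported to bind, had 30.5 ± 3.85 CPM in HFCS and 10.04 ± 1.07 CPM in control libraries. Its log2 fold change was 1.6 ± 0.13 (SE; edgeR adjusted p = 8.5e-06). Txn1, the thioredoxin that TXNIP holds, had 165 ± 9.94 CPM in HFCS and 223 ± 28.8 CPM in control libraries, a log2 fold change of -0.44 (edgeR adjusted p = 0.0032). The thioredoxin reductase gene Txnrd1 had a log2 fold change of 0.03 (edgeR adjusted p = 0.70). Ddit4, a stress-induced brake on mTORC1 whose protein is known to pair with TXNIP, had 0.14 (edgeR adjusted p = 0.52). It passed without control replicate 1 (0.026). Txnrd2, the mitochondrial reductase gene, had 0.25 (edgeR adjusted p = 0.1). It passed without the same library (0.023), with library-size scaling (0.039) and under the replicate block (0.043).

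Genes of the glucose transporter family, only some of whose products are known as cargo of TXNIP, also moved apart. Of 7 tested genes, 1 rose, 3 fell and 3 did not pass, with a median log2 fold change of -0.26. The share that passed was 57.1%, against 44.9% of all tested genes. Slc2a3 (GLUT3) had 156 ± 6.82 CPM in HFCS and 108 ± 1.65 CPM in control libraries, a log2 fold change of 0.53 (edgeR adjusted p = 1e-04). Slc2a1 (GLUT1), the transporter best known as cargo of TXNIP, had 199 ± 17.2 CPM in HFCS and 241 ± 8.09 CPM in control libraries. Its log2 fold change was -0.28 (edgeR adjusted p = 0.012), and it did not pass without HFCS replicate 1 (0.084). Slc2a13, which codes for a myo-inositol transporter, was counted 1, 4 and 1 times in HFCS libraries, against 76, 107 and 103 times in control libraries. It lay near the floor in HFCS libraries, and its log2 fold change was -5.57 ± 0.41 (SE; edgeR adjusted p = 3.4e-06). Slc2a9, a urate transporter gene, had -0.26 (edgeR adjusted p = 0.018) and did not pass without any one of the HFCS replicates (0.093, 0.076 and 0.052) or control replicate 3 (0.08), nor with library-size scaling (0.08) or no filter on low counts (0.074). Slc2a6 had 0.23 (edgeR adjusted p = 0.066). It passed without control replicate 1 (0.0015), with library-size scaling (0.019), no filter on low counts (0.04) or the replicate block (0.029). Scaled by library size alone, 2 genes were higher and 2 lower.

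Among NEDD4-family ubiquitin ligases and their adaptors, which α-arrestins recruit, 3 of 9 tested genes rose, 1 fell and 5 did not pass. The 44.4% that passed are near the 44.9% of all tested genes, and the median log2 fold change was 0.18. The ligase gene Smurf1 had 23.3 ± 2.24 CPM in HFCS and 12.0 ± 0.0353 CPM in control libraries, a log2 fold change of 0.96 (edgeR adjusted p = 8.9e-05). Smurf2 (0.58) and the adaptor gene Ndfip2 (0.35) rose as well. Wwp1 fell by 0.45 on the log2 scale (edgeR adjusted p = 0.015), but did not pass without HFCS replicate 1 or 2 or control replicate 2 or 3 (0.058, 0.07, 0.068 and 0.051). Itch had a log2 fold change of 0.14 (edgeR adjusted p = 0.16), and it passed without control replicate 2 (0.048) and with library-size scaling (0.036). Nedd4 was not analysed here. Scaled by library size alone, 6 genes of the list were higher and 1 lower.

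Of 13 tested genes of the ESCRT machinery, through which ARRDC1 buds vesicles, 5 rose, 1 fell and 7 did not pass. The 46.2% that passed are near the 44.9% of all tested genes, and the median log2 fold change was 0.03. Tsg101, the subunit that ARRDC1 binds, had 75.8 ± 0.370 CPM in HFCS and 54.0 ± 5.12 CPM in control libraries, a log2 fold change of 0.49 (edgeR adjusted p = 0.00082). Vps37c (0.66), Mvb12b (0.45) and Vps4b (0.37) rose too, the last being an ATPase that takes ESCRT filaments apart. Mvb12a (0.36, edgeR adjusted p = 0.012) did not pass without HFCS replicate 2 (0.052) or control replicate 3 (0.053). Ubap1 (-0.25, edgeR adjusted p = 0.015) did not pass without any one of the HFCS replicates (0.083, 0.062 and 0.058), nor with library-size scaling (0.074) or no filter on low counts (0.073). Vps37a had -0.26 (edgeR adjusted p = 0.075) and Stam -0.25 (edgeR adjusted p = 0.064). Both passed without control replicate 1 (0.0017 and 0.0022), with upper-quartile scaling (0.05 and 0.04) and under the replicate block (0.027 and 0.026). With upper-quartile scaling, and likewise with the block, 5 genes were higher and 3 lower.

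Of the genes that act with β-arrestins, 25.0% of GPCR kinases and 25.0% of clathrin and AP-2 adaptor genes passed. Of all tested genes, 44.9% did, and with so few genes these shares are descriptions. Of 4 tested GPCR kinases, which mark receptors for arrestin binding, Grk6 fell and 3 did not pass, with a median log2 fold change of -0.29. Grk6 had 64.6 ± 2.22 CPM in HFCS and 106.6 ± 10.2 CPM in control libraries, a log2 fold change of -0.72 (edgeR adjusted p = 6.4e-05). Grk2, the most abundant, had 292 ± 7.40 CPM in HFCS and 291 ± 19.6 CPM in control libraries (edgeR adjusted p = 0.97). Of 8 clathrin and AP-2 adaptor genes, 1 rose, 1 fell and 6 did not pass, with a median of -0.11. The light chain gene Clta had -0.28 on the log2 scale (edgeR adjusted p = 0.0079; 0.053 without HFCS replicate 1). The other light chain gene, Cltb, had 0.58 (edgeR adjusted p = 0.027) and did not pass without HFCS replicate 1 or 2 or control replicate 2 or 3 (0.091, 0.065, 0.089 and 0.09). Cltc, the heavy chain gene, had -0.20 (edgeR adjusted p = 0.11). It passed without control replicate 1 (0.00027) and under the replicate block (0.032). Ap2b1 (edgeR adjusted p = 0.23) passed without control replicate 1 (0.0099).

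Of 6 other tested genes with the arrestin fold, 2 rose, 1 fell and 3 did not pass, with a median log2 fold change of 0.05. Arr3, the cone arrestin gene, was counted 37 times over the HFCS and 129 times over the control libraries, a log2 fold change of -1.87 (edgeR adjusted p = 0.00089). Sag, the rod arrestin gene, was counted 128 times over the HFCS and 68 times over the control libraries, a log2 fold change of 0.82 (edgeR adjusted p = 0.04). It did not pass without HFCS replicate 2 or 3 or any one of the control replicates (0.17, 0.079, 0.058, 0.1 and 0.065), nor with DESeq2 (0.072) or limma-voom (0.056). Rgp1, a partner of the RIC1 exchange factor at the Golgi, had 0.27 (edgeR adjusted p = 0.027) and did not pass without HFCS replicate 1 or 2 or control replicate 2 or 3 (0.096, 0.074, 0.082 and 0.11). Arrdc5 had 2 counts over the HFCS and 3 over the control libraries and was not tested. Of the 9 lists of related genes, between 18.2% and 64.3% of the tested genes passed, on both sides of the 44.9% of all tested genes.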

How the data were processed

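RNA sequencing of RAW264.7 cells gave 6 libraries, 3 labelled HFCS and 3 control, grouped by sample title. The authors deposited a table of read counts per gene, in whole numbers and without normalisation. Per the submitters' processing notes, CASAVA, HISAT2 2.0.5 and featureCounts 1.5.0-p3 were used on mm10. No source used here gives the annotation release or the strand setting. Symbols and exon lengths came from GENCODE M21, in which 97.1% of genes had the same coordinates.

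Genes were kept by edgeR's filterByExpr (minimum count 10), which removed 10019 genes, 0 of them among the 9 described. The test was the quasi-likelihood test of edgeR 4.0.16 in R 4.3.3, with TMM scaling and Benjamini-Hochberg adjustment over 14360 genes. Each SE is the size of the log2 fold change over the square root of F. The procedure was also run on simulated counts in which few genes changed, as many up as down, with gene-wise scatter taken from the same fit. Such counts cannot check the calls where as many genes differ as here. Within-library ratios were compared by exact permutation. The floor covers counting error only, as PCR copies of a molecule are counted as reads. Alternatives were other scalings, DESeq2 1.42.0, limma-voom 3.58.1, other filters, fold limits, a replicate block and each library left out.

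The members and lists were chosen with earlier results of these data known. Named were all 9 members, up to 4 genes per list by smallest adjusted p, 10 further genes chosen for the question, and the 5 nearest in pattern to Txnip and to Arrdc4. Other names, such as Akr1b3, the markers, Gm15441, Psmc3ip, Mxd1, Bhlhe40, Klf10, Elovl6, Gys1, Mvb12a, Ubap1, Cltc, Ap2b1, Txnrd2, Slc2a6, Vps37a, Stam and genes below the filter, were added after their values were seen. Protein sequences were not analysed here. Genes that these rules name but the text leaves out are not reported here.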

Additional observations from a re-analysis of the deposited data

How the results depend on the processing

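All 9 genes kept their direction and their side of the threshold under each of 14 alternatives, 126 values in all, namely 3 other scalings, DESeq2, limma-voom, 2 other filters, the replicate block and each library left out. Over these 14 alternatives, the log2 fold change was 0.87 to 0.98 for Txnip, 1.39 to 1.75 for Arrdc4, 0.69 to 0.83 for Arrdc3, -1.97 to -1.81 for Arrdc2, 0.38 to 0.51 for Arrb2 and -0.66 to -0.51 for Arrb1. A limit of 2-fold left 2 of the 6 calls, and 1.5-fold left 4. Over all genes, 6447 passed, 3182 of them at 1.5-fold or more and 1528 at 2-fold or more, and the number passing ran over 5115 to 7550 as single libraries were left out. Library-size scaling made 60.2% of calls higher in place of 50% and moved the median log2 fold change to 0.075. Of 630 values for 45 other genes named by the stated rules, 593 stayed on their side, 27 lost and 6 gained a call, and 4 turned sign. All 4 were of Grk2, at -0.03 with upper-quartile scaling and at or below 0.0 without HFCS replicate 3, control replicate 2 or control replicate 3. The range of Grk2 without 1 library was -0.03 to 0.06, and the cause was not tested. Genes named outside these rules were not among the 45. Of those, Gys1 changed its call in 6 of 14 alternatives, Klf10 and Ubap1 in 5 each, and Bhlhe40 and Elovl6 in 0. Replicate numbers gave no clear pairing of the samples. Correlations of same-numbered deviations were 0.167, -0.064 and 0.191, and not every library correlated best with its own number. With 3 libraries per group, these correlations cannot settle whether the samples were paired. With the replicate number as a block, 7152 genes passed in place of 6447, 3619 higher and 3533 lower, and 6 of the 9 genes passed. The difference in the log2 ratio of Arrdc4 to Txnip was 0.47 to 0.88 without 1 library, that of Arrb2 to Arrb1 0.97 to 1.14 and that of Mlx to Mlxip -0.20 to 0.00. Depth limits Arrdc4 most, with 24 to 90 counts in a library.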
